A study of Homo sapiens with 8 samples.

Results

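RAB genes were taken from the m6A peak lists of Mel624 melanoma cells by their gene symbol, which had to be RAB followed by a number and, where present, letters and a further number. The symbols matched 51 of the 10078 genes listed in either group, with 74 peaks in 48 genes in control cells and 82 peaks in 50 genes after knockdown of FTO. Of the 51 genes, 43 encode RAB GTPases. The other 8 carry RAB in their name only. RAB11FIP1, RAB11FIP2, RAB11FIP3, RAB11FIP4 and RAB11FIP5 bind active RAB11, RAB3GAP1 and RAB3GAP2 form a complex that switches RAB3 off, and RAB3IL1 is a nucleotide exchange factor. They are described apart from the GTPases. The GTPases alone had 63 peaks in 41 genes in control cells and 66 peaks in 42 genes after knockdown, and 40 GTPase genes were in both lists.

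Mel624 is an established human melanoma line, and the cells of both groups had been infected with lentivirus that carried a short hairpin RNA, shNC as a negative control or shFTO against the m6A demethylase FTO, and selected with puromycin. There were 2 replicates per group, and for each a library of fragments pulled down with an m6A antibody (IP) and a library of the input RNA were sequenced, 8 libraries in all. A peak is a stretch of mRNA that is enriched in the IP. Its log2 enrichment score sets the reads of the peak against the median window along its own mRNA, in the IP over the input, and the authors kept windows with a score of at least 1. Scores are in the deposited lists per replicate without the reads behind them, so the depth of each value is unknown. The level of FTO mRNA was not analysed here. It is not stated whether the replicates came from separate cultures, and a p-value here covers the spread between these libraries alone. Of 10 melanocyte genes chosen to check the cell type, 9 had peaks in both lists, among them PMEL, TYR and MLANA, while 0 of 5 leukocyte, 0 of 4 keratinocyte and 0 of 5 fibroblast genes had one.

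RAB proteins are small GTPases that are switched on by exchange factors and off by GTPase-activating proteins. In the active state each one recruits effectors to a particular membrane, where it directs budding, transport, tethering or fusion of vesicles. In melanocytes RAB32 and RAB38 bring pigment enzymes to the melanosome, and RAB27A, through melophilin and myosin Va, holds the finished melanosome at the actin cortex. RefSeq holds 74 protein-coding genes with a matching symbol, and 23 of them had no peak under that symbol in either list. Among the 23 were RAB38 and RAB40B, and RAB27B, RAB3A, RAB3B, RAB3C and RAB3D of the secretory group. RAB5IF, another of the 23, is in the lists under an older symbol. A gene can lack a peak because no window passed the thresholds or because too little of its mRNA was read, and these cases cannot be told apart here.

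The lists name the positions of GGACU, the most common core of m6A sites, inside each peak. For the RAB genes 32 GGACU positions in 21 genes were listed, and 25 positions in 17 genes could be placed on the genome. The following 25-base stretches show the motif in capitals with the 10 bases on each side, read 5′ to 3′ on the mRNA, from the hg38 genome. They were chosen because the peaks that hold them are described in the text: a high-scoring peak (RAB18, RAB3GAP1), a peak at a stop codon or in a 3′UTR found in both groups (RAB20, RAB35, RAB5B, RAB14, RAB28, RAB40C), or a peak found in 1 group only (RAB6B in shNC, RAB11FIP3 in shFTO).
RAB18 (coding, chr10:27537940-27537964, plus strand): ucagaccccuGGACUgugggaaagu
RAB3GAP1 (coding, chr2:135168723-135168747, plus strand): ucaccaaagaGGACUuuagacuugc
RAB20 (3′UTR, chr13:110523634-110523658, minus strand): agggccuccuGGACUcagacugugc
RAB35 (3′UTR, chr12:120096966-120096990, minus strand): cccgccgagcGGACUgauucgcaga
RAB5B (3′UTR, chr12:55992439-55992463, plus strand): acuccccccaGGACUuaccuuccaa
RAB14 (3′UTR, chr9:121179551-121179575, minus strand): gcaucacaagGGACUcacccaggga
RAB28 (3′UTR, chr4:13368587-13368611, minus strand): ccuaugucaaGGACUguuaacccuc
RAB28 (3′UTR, chr4:13368485-13368509, minus strand): gugggcccgaGGACUucuaggaacu
RAB40C (3′UTR, chr16:628873-628897, plus strand): cccccgugguGGACUccgcggcaca
RAB40C (3′UTR, chr16:628932-628956, plus strand): gggcaccaguGGACUcgccccaugg
RAB6B (3′UTR, chr3:133827131-133827155, minus strand): gaaucuggcaGGACUgauauuugug
RAB11FIP3 (3′UTR, chr16:522357-522381, plus strand): cuguaagcauGGACUcccaggagac

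RAB GTPase peaks lay mostly at stop codons and in 3′UTRs, and few lay inside coding sequence. In shNC, 17 of the 63 peaks (27.0%, exact Clopper-Pearson 95% interval 16.6 to 39.7%) were at a stop codon and 19 (30.2%, 19.2 to 43.0%) in a 3′UTR, against 19.4% and 21.8% of all 19072 peaks of that list. Only 8 (12.7%, 5.65 to 23.5%) were in coding sequence, against 32.7% of all peaks. The 5′UTR held 9 (14.3%, 6.75 to 25.4%), against 6.57%. In shFTO the stop codon held 20 of 66 peaks (30.3%), the 3′UTR 19 (28.8%), the coding sequence 6 (9.09%) and the 5′UTR 10 (15.2%), against 20.02%, 21.2%, 32.1% and 6.64% of all 18551 peaks. Most places are the same ones in both lists, so the second list is no independent sample of them. Among the 41 GTPase genes of shNC, the highest-scoring peak was at the stop codon in 15 and in the 3′UTR in 9. It was at the start codon in 7, in coding sequence in 6 and in the 5′UTR in 4. Of all genes of that list, 26.3% had it at the stop codon and 18.2% in the 3′UTR. A further 19.7% had it at the start codon, 26.0% in coding sequence and 5.9% in the 5′UTR. These shares were not tested, and the intervals cover counting error only. The length of each region, which can differ between the GTPases and all genes, was not taken into account.

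GGACU was listed in a minority of the RAB GTPase peaks. In shNC it was in 15 of 63 (23.8%, 13.98 to 36.2%), against 36.3% of all peaks, and in shFTO in 14 of 66 (21.2%, 12.1 to 33.0%), against 38.15%. The stop codon peaks held it in 2 of 17 in shNC, those of RAB18 and RAB20, where 42.15% of all stop codon peaks held it. In the 3′UTR the GTPases held it in 10 of 19 peaks in shNC, and all genes in 40.4%. In shFTO it was in 8 of 19 (42.1%) of the 3′UTR peaks of GTPases, against 42.9% for all genes. None of the 8 coding sequence peaks of shNC held it. The effectors and regulators held GGACU in 7 of 11 peaks in shNC (63.6%, 30.8 to 89.1%) and in 10 of 16 in shFTO (62.5%, 35.4 to 84.8%). Median widths were alike, 244 nt for the GTPases and 251 nt for all peaks in shNC. Within 50 nt of the peak centre GGACU was in 9 of 63 GTPase peaks in shNC (14.3%, 6.75 to 25.4%) against 18.2% of all peaks, and in 8 of 66 in shFTO (12.1%, 5.38 to 22.5%) against 18.9%, so on that measure the value of all peaks lay inside the interval. For the effectors and regulators it was then in 4 of 11 (36.4%) and 6 of 16 (37.5%). The lists give this 1 sequence only, and a peak without it may hold other forms of the motif.

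**Figure D1:**
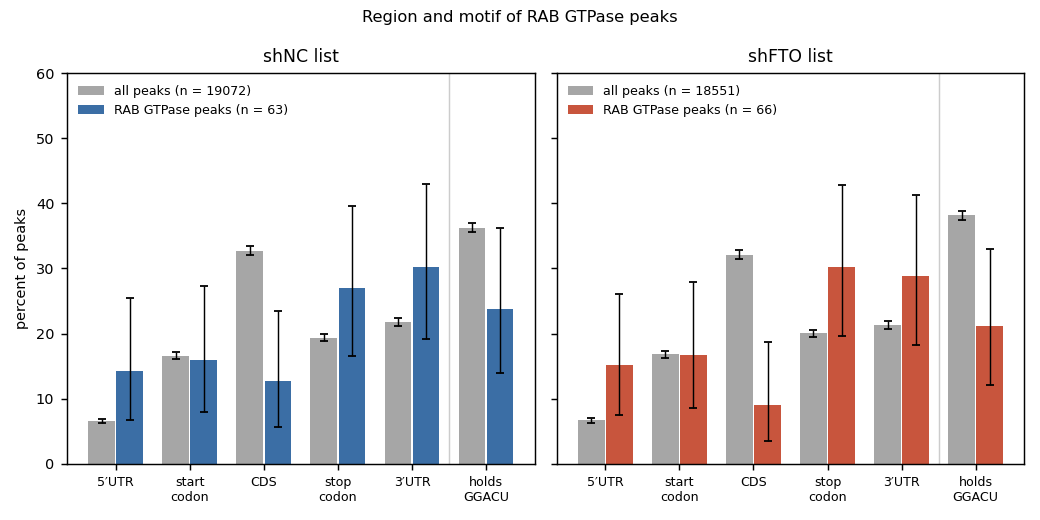
Percent of peaks (y axis) in each region of the mRNA and percent that hold GGACU (x axis), for all peaks (grey) and RAB GTPase peaks (colour), in the shNC list (left) and the shFTO list (right). Bars are shares of peaks with exact 95% intervals; coding sequence held 12.7% of the GTPase peaks in shNC against 32.7% of all peaks, and GGACU was in 23.8% against 36.3%.

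The melanosome group consisted of RAB27A and RAB32, as RAB38 had no listed peak. RAB27A (chromosome 15, 55202966 to 55319123, GRCh38) had 1 peak, in the coding sequence, at nucleotides 596 to 865 of the isoform in shNC and 597 to 872 in shFTO, with no GGACU listed. Its log2 score was 1.92 and 4.28 in shNC and 2.35 and 1.23 in shFTO. The groups overlapped, since the first shNC replicate lay between the shFTO replicates, and the highest of the 4 values was the second shNC replicate alone. The difference of the means, shFTO minus shNC, was −1.31 with a standard error of 0.68 and a 95% interval from −2.86 to 0.24 (limma, Benjamini-Hochberg adjusted p = 0.875). The gap of 2.36 between the shNC replicates was matched or passed by 0.168% of all shNC peaks, and the gap of 1.12 in shFTO by 4.2% of all shFTO peaks. The difference was −0.13 without the second shNC replicate, −2.49 without the first and −0.75 without the second shFTO replicate.

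RAB32 (chromosome 6, 146543833 to 146554953) had a peak at the start codon in both groups, which covered 111 to 300 in shNC and reached 310 in shFTO. Its replicates scored 1.22 and 0.93 in shNC and 1.22 and 0.92 in shFTO, close to the threshold of 1. The difference was −0.00 with an interval from −0.67 to 0.67 (limma, adjusted p = 1). A weak peak in its coding sequence, at 641 to 851, was in the shNC list only, with scores of 1.12 and 1.09.

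Of the peaks in both groups, 60 RAB peaks in 47 genes overlapped exactly 1 peak of the other list and could be compared, 50 of them in 40 GTPase genes. The median difference was 0.00 for the 50 GTPase peaks, against −0.01 for all 12117 peaks compared. With Benjamini-Hochberg adjustment over all of these, limma called 0 RAB peaks and 0 peaks in all (0%), and the lowest adjusted p of a RAB peak was 0.823. At an unadjusted p of 0.05, 0 RAB peaks were higher in shFTO, where 2.3% of all peaks were, and 2 were lower, those of RAB31 and RAB30, where 3.68% of all were. Neither was lower at that p with the replicate number as a block or without the second shFTO replicate. Both shFTO replicates lay above both shNC replicates in 13 RAB peaks (21.7%), against 15.7% of all peaks, and below both in 7 (11.7%), against 17.7%. The other 40 overlapped. With 2 replicates against 2, an exact permutation test of a single peak cannot give a two-sided p below 0.333.

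**Figure D2:**
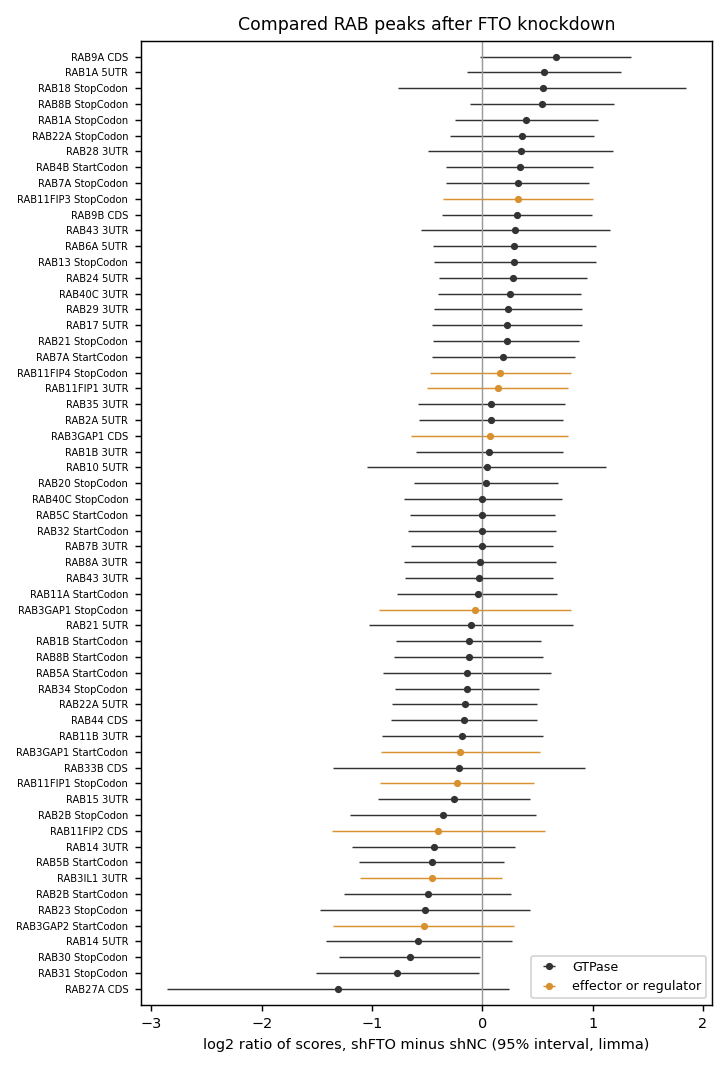
Difference of the mean log2 enrichment scores, shFTO minus shNC (x axis), of the 60 compared RAB peaks, sorted by size and labelled with gene and region in shNC (y axis). Points are the differences and lines their 95% intervals from limma; the differences run from −1.31 in RAB27A to 0.67 in RAB9A, and only the intervals of RAB31 and RAB30 do not reach 0.

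Among the RABs of the ER and Golgi, 13 compared peaks in 9 genes had a median difference of 0.06, with 2 peaks above (15.7% of all peaks) and 2 below (17.7% of all peaks) without overlap. RAB1A, which directs transport from the ER to the Golgi (chromosome 2, 65086854 to 65130106), gave both of those above. Its 5′UTR peak at 104 to 359 scored 1.77 and 1.26 in shNC and 2.19 and 1.96 in shFTO, a difference of 0.56 (SE 0.31, limma adjusted p = 0.881) that was 0.31 without the second shNC replicate. Its stop codon peak at 839 to 1118 scored 1.65 and 1.59 in shNC and 2.15 and 1.89 in shFTO, a difference of 0.40 (SE 0.29, adjusted p = 0.941). In the close relative RAB1B the start codon peak gave −0.12 and the 3′UTR peak 0.06, with overlapping replicates in both. RAB30, a Golgi RAB (chromosome 11, 82973133 to 83071897), was the clearest case below. Its stop codon peak scored 5.11 and 5.09 in shNC and 4.48 and 4.40 in shFTO. The peak covered 467 nt in shNC, at 727 to 1193, and 320 nt in shFTO, at 821 to 1140, so the scores are of stretches unlike in extent. The replicates lay within 0.08 of each other in each group, and the difference was −0.66 (SE 0.28, interval −1.30 to −0.02, adjusted p = 0.823). The start codon peak of RAB2B, which acts at the Golgi, was the other below, with 2.74 and 2.87 in shNC and 2.69 and 1.93 in shFTO. Its relative RAB2A scored 2.30 and 2.14 in shNC and 2.21 and 2.40 in shFTO in the 5′UTR.

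The group also held some of the highest scores. RAB33B, a Golgi RAB that binds the autophagy protein ATG16L1, had a coding sequence peak at 663 to 948 with 4.58 and 5.79 in shNC and 5.61 and 4.34 in shFTO. The replicates of each group lay more than 1 apart and the groups overlapped, with a difference of −0.21. RAB18, a RAB of the ER and of lipid droplets (chromosome 10, 27504304 to 27542239), had its 1 peak at the stop codon, at 677 to 915 in both groups, around the coding GGACU printed above. It scored 3.53 and 5.62 in shNC and 5.26 and 4.97 in shFTO, a difference of 0.55 (SE 0.57, adjusted p = 0.967). Leaving out the first shNC replicate turned the difference to −0.50, and leaving out the second gave 1.59, so its direction rests on a single replicate.

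RAB43 and RAB6A had the most peaks of all GTPases. RAB43, a Golgi RAB, had 4 peaks per list, all in the 3′UTR. The nearest to the coding sequence, at 799 to 1076 in shNC, was the highest, with 3.40 and 3.60 in shNC and 3.38 and 3.73 in shFTO. The farthest, at 3687 to 4033, scored 1.97 and 2.36 in shNC and 2.18 and 2.09 in shFTO. Both of these hold GGACU, and the pair of peaks between them does not. RAB6A, which directs retrograde transport through the Golgi, had 3 peaks in shNC and 4 in shFTO. Its stop codon peak at 981 to 1222 scored 3.25 and 3.72 in shNC and 3.42 and 2.89 in shFTO, and a further peak in shFTO only, at 2181 to 2378 of the 3′UTR, scored 1.01 and 1.23. RAB6C, a near-identical retrogene copy of RAB6A, had no peak, and reads of the pair may have been assigned to either.

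RAB6B and RAB33A of this group were each in 1 list only. RAB6B, a paralogue of RAB6A best known from brain, had a 3′UTR peak at 2347 to 2731 in shNC with 2.30 and 2.38, around the GGACU printed above, and no peak in shFTO. RAB33A had a start codon peak at 114 to 330 in shFTO with 1.21 and 0.71, and no peak in shNC.

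**Figure D3:**
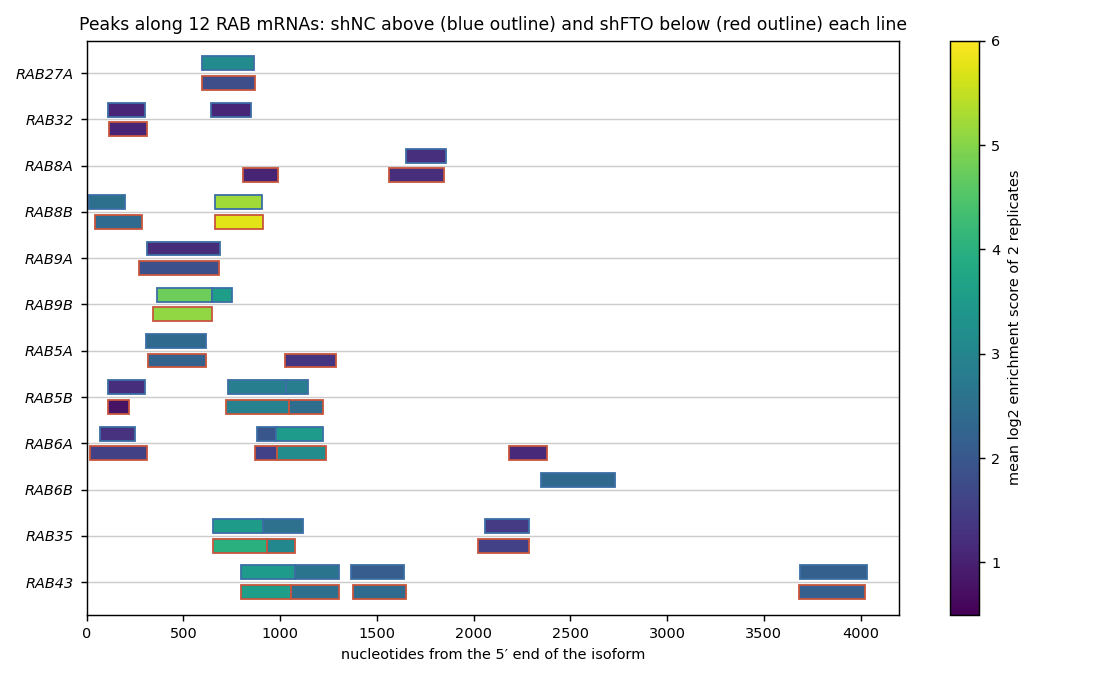
Peaks of 12 RAB mRNAs along the isoform, in nucleotides from its 5′ end (x axis), with shNC above and shFTO below the line of each gene (y axis); colour gives the mean log2 score of 2 replicates. RAB8B has its brightest peak in the same place in both groups, RAB6B has a peak in shNC only, and RAB5A, RAB6A and RAB8A each have 1 further weak peak in shFTO only.

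The RABs of the early endosome gave 12 compared peaks in 9 genes with a median difference of −0.12, with 2 above (15.7% of all peaks) and 4 below (17.7% of all peaks). RAB31, which carries cargo between the trans-Golgi and endosomes (chromosome 18, 9708301 to 9862551), had its peak at the stop codon, at 714 to 952 in shNC. It scored 3.53 and 2.84 in shNC and 2.37 and 2.46 in shFTO, so both shFTO values were below both shNC values. The difference was −0.77 (SE 0.33, interval −1.51 to −0.03, adjusted p = 0.823), and −0.42 without the first shNC replicate. RAB22A, its closest relative (chromosome 20, 58309715 to 58367507), had a stop codon peak at 749 to 990 that scored 4.05 and 4.22 in shNC and 4.58 and 4.41 in shFTO. Here the shFTO values were above, with a difference of 0.36 (SE 0.29, adjusted p = 0.954). The 5′UTR peak of RAB22A scored 2.19 and 1.89 in shNC and 1.83 and 1.93 in shFTO, a difference of −0.16 with overlapping replicates. Whether these paralogues differ from each other was not tested. RAB14, a RAB of the Golgi and early endosome (chromosome 9, 121178133 to 121201869), was below in both of its peaks. In the 5′UTR, at 173 to 416, it scored 3.46 and 2.43 in shNC and 2.35 and 2.39 in shFTO, a difference of −0.58 (SE 0.37, adjusted p = 0.928), which was −0.06 without the first shNC replicate and −1.09 without the second. In the 3′UTR the values were 1.77 and 2.45 in shNC and 1.74 and 1.61 in shFTO, a difference of −0.44. The margin was small in each, as the lower shNC replicate lay within 0.1 of the higher shFTO replicate.

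The RAB5 genes, which drive the fusion of early endosomes, differed in where their peaks lay. RAB5A had its main peak at the start codon, at 305 to 618, with 2.29 and 2.41 in shNC and 2.59 and 1.83 in shFTO. A stop codon peak at 1027 to 1290 was in the shFTO list only, with 1.71 and 0.98. RAB5B had its higher peaks at the end of the mRNA, at 732 to 1030 around the stop codon with 2.88 and 2.80 in shNC, and at 1031 to 1142 of the 3′UTR with 2.79 and 2.85. These abut, and in shFTO the border lay at 1045, with 2.89 and 2.98 before it and 2.38 and 2.51 after it. Its weak peak near the start codon scored 1.20 and 1.26 in shNC and 0.94 and 0.60 in shFTO. RAB5C had a start codon peak only, with 1.75 and 1.46 in shNC and 1.53 and 1.68 in shFTO.

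RAB21, which carries integrins, had a stop codon peak with 4.05 and 4.14 in shNC and 4.50 and 4.13 in shFTO, and a difference of 0.22. Its 5′UTR peak gave −0.10. RAB20, a RAB of phagosomes and endosomes, scored 2.59 and 2.62 in shNC and 2.78 and 2.50 in shFTO at the stop codon. RAB4B, which acts in early recycling, had a start codon peak with 1.27 and 1.18 in shNC and 1.39 and 1.74 in shFTO.

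The 5 RABs of the recycling endosome gave 5 compared peaks with a median difference of −0.04, and the replicates of the groups overlapped in all 5. RAB11A, the RAB of the recycling endosome itself, had a start codon peak at 22 to 279 with 3.87 and 3.93 in shNC and 4.18 and 3.54 in shFTO. RAB11B had its peak at the other end of the mRNA, at 773 to 1052, with 1.97 and 2.18 in shNC and 1.58 and 2.20 in shFTO. RAB35, which returns cargo to the plasma membrane, had 3 peaks per list. The highest was at the stop codon, with 3.67 and 3.37 in shNC and 3.86 and 4.12 in shFTO, next to a 3′UTR peak around the GGACU printed above with 2.73 and 2.35 in shNC and 2.97 and 3.15 in shFTO. In both, the shFTO values were above the shNC values. These peaks overlapped more than 1 peak of the other list, since their shared border moved from 912 to 931, and were outside the limma fit, as were peaks of RAB5B, RAB6A, RAB43 and RAB17 that met more than 1 partner. RAB17 and RAB15 scored between 1.33 and 2.36 in every replicate.

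For the late endosome and lysosome, 6 peaks in 5 genes were compared, with a median difference of 0.27 and a range from −0.00 in RAB7B to 0.67 in RAB9A. Without overlap 3 were above (15.7% of all peaks) and 0 below (17.7% of all peaks). RAB9A, which returns mannose 6-phosphate receptors to the trans-Golgi (chromosome X, 13689128 to 13710504), had the largest positive difference of any RAB peak. Its peak, at 313 to 690 in shNC and 273 to 683 in shFTO, scored 1.26 and 1.11 in shNC and 1.62 and 2.08 in shFTO. The difference was 0.67 (SE 0.30, interval −0.02 to 1.35, limma adjusted p = 0.832), and 0.44 without the second shFTO replicate. RAB7A, which matures late endosomes and brings them to lysosomes, was above at both of its peaks. The start codon peak scored 2.39 and 2.34 in shNC and 2.68 and 2.43 in shFTO, and the peak at the stop codon 2.27 and 2.24 in shNC and 2.46 and 2.70 in shFTO. The differences of 0.19 and 0.32 were small beside their standard error of 0.29.

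Higher scores were found in the relatives of these genes. RAB9B (chromosome X, 103776324 to 103832257) had a coding sequence peak with 4.91 and 4.62 in shNC and 5.25 and 4.90 in shFTO. In shNC a second stretch, at 646 to 751 with 3.60 and 3.48, followed it without a gap and was in that list only. RAB7B, a lysosomal RAB, scored 4.27 and 4.15 in shNC and 4.13 and 4.28 in shFTO in its 3′UTR, a difference of −0.00. RAB29, which recruits the kinase LRRK2 to membranes, scored 4.17 and 4.30 in shNC and 4.28 and 4.65 in shFTO in its 3′UTR.

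Of the RABs of exocytosis, RAB8B had the highest mean score of any RAB gene, 5.75 in shFTO (chromosome 15, 63189606 to 63267776). RAB8A and RAB8B both carry vesicles from the Golgi to the plasma membrane, but their peaks were unlike. The RAB8B stop codon peak, at 664 to 907 in shNC, scored 5.07 and 5.34 in shNC and 5.77 and 5.73 in shFTO. Both shFTO values were above, with a difference of 0.54 (SE 0.29, interval −0.11 to 1.19, adjusted p = 0.877). At the start codon RAB8B gave −0.12 with overlapping replicates. RAB8A had a 3′UTR peak with 1.09 and 1.40 in shNC and 1.42 and 1.03 in shFTO, and at its stop codon a peak in shFTO only, at 811 to 990, with 1.0 and 1.09. RAB10, which moves the glucose transporter in fat cells, scored 2.04 and 3.32 in shNC and 3.22 and 2.21 in shFTO in its 5′UTR. RAB13, which serves cell junctions, scored 1.52 and 1.04 in shNC and 1.33 and 1.81 in shFTO at the stop codon. RAB26, a RAB of secretory granules (chromosome 16, 2148144 to 2154165), was in the shFTO list only. Its 3′UTR peak at 1059 to 1345 had closely matching scores of 3.88 and 3.85, the highest of the GTPase peaks without a partner.

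**Figure D4:**
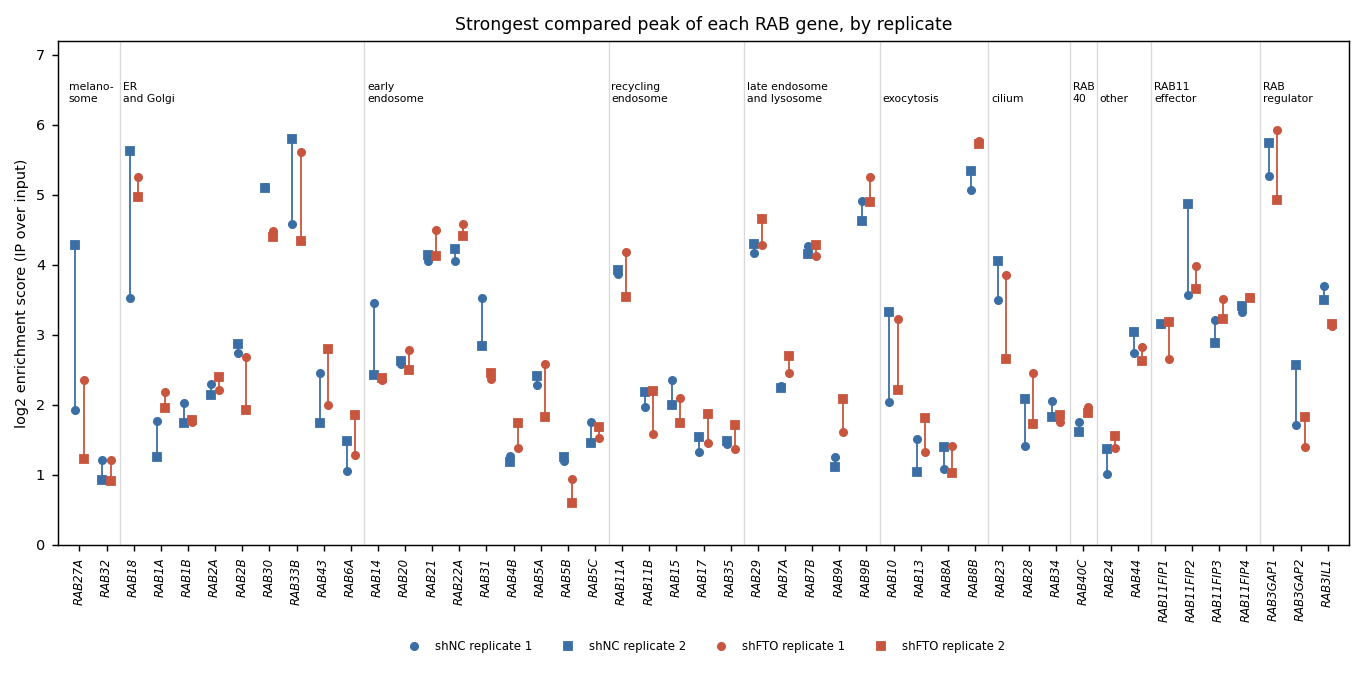
Log2 enrichment score (y axis) of the highest compared peak of each RAB gene (x axis), grouped by the membrane or role of the protein. Points are single replicates of shNC (blue) and shFTO (red), joined by a line within a group; the RAB27A replicates of shNC lie 2.36 apart, those of RAB30 lie apart by group, and RAB8B in shFTO has the highest mean, 5.75.

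The remaining GTPases were few. The ciliary RABs RAB23, which restrains Hedgehog signalling, RAB28 and RAB34 gave differences of −0.52, 0.35 and −0.14 with overlapping replicates. In RAB28 the shNC peak covered 100 nt and 1 GGACU, and the shFTO peak covered 296 nt and both of those printed above. RAB40C, an adaptor of a ubiquitin ligase, had a stop codon peak with 1.99 and 1.40 in shNC and 1.64 and 1.76 in shFTO. Its 3′UTR peak around 2 GGACU scored 1.75 and 1.61 in shNC and 1.97 and 1.88 in shFTO, a difference of 0.25 (SE 0.28). RAB40B, the relative measured in the study by other assays, had no peak in either list. RAB24, an atypical RAB of autophagy, had a 5′UTR peak that covered 30 to 150 in shNC and 30 to 290 in shFTO. It scored 1.02 and 1.37 in shNC, near the threshold of 1, and 1.39 and 1.56 in shFTO, a difference of 0.28 (SE 0.30). RAB44, a large RAB with EF hands, scored 2.74 and 3.04 in shNC and 2.82 and 2.63 in shFTO in its coding sequence and had a further coding peak in shFTO only, at 1261 to 1511, with 2.71 and 2.80.

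Among the effectors and regulators the highest peak belonged to RAB3GAP1 (chromosome 2, 135052292 to 135176396), which with RAB3GAP2 also acts as the exchange factor of RAB18. Its stop codon peak, around the coding GGACU printed above, scored 5.27 and 5.74 in shNC and 5.93 and 4.93 in shFTO, a difference of −0.07 (SE 0.38). An adjoining stretch at 2802 to 2906 was in the shFTO list only, with 4.97 and 4.23. The start codon peak of RAB3GAP2 scored 1.71 and 2.57 in shNC and 1.40 and 1.83 in shFTO, a difference of −0.53 (SE 0.36, limma adjusted p = 0.933). This was −0.95 without the first shNC replicate, −0.10 without the second and −0.31 without the first shFTO replicate. RAB3IL1 had a 3′UTR peak over both of its GGACU positions, with 3.70 and 3.50 in shNC and 3.12 and 3.16 in shFTO. Its difference was −0.46 (SE 0.28, limma adjusted p = 0.911). Of the 10 compared peaks of the effectors and regulators, this was the only peak with both shFTO values below (10%, against 17.7% of all peaks).

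The RAB11 effectors, which link RAB11 to motors and to the division of cells, were above in 3 of their 5 compared peaks, where 15.7% of all peaks were, by 0.14 in the RAB11FIP1 3′UTR, 0.16 at the RAB11FIP4 stop codon and 0.32 at the RAB11FIP3 stop codon. The largest of these, 0.32, had a standard error of 0.30 and an adjusted p of 0.967 (limma). RAB11FIP2 had a peak at 1717 to 1964 with 3.57 and 4.87 in shNC and 3.98 and 3.66 in shFTO. A second one, at 1298 to 1635 of its coding sequence, was in shFTO only, with 4.55 and 3.16. RAB11FIP5 had no peak in shNC and a pair of adjoining peaks in shFTO, at 2055 to 2314 around the stop codon with 3.06 and 3.07 and at 2315 to 2607 of the 3′UTR with 3.61 and 3.40. RAB11FIP1 had a coding sequence peak at 1059 to 1313 with 2.54 and 2.53, and RAB11FIP3 a 3′UTR peak at 4004 to 4242 with 2.32 and 2.37, each in the shFTO list alone.

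Peaks without any overlap in the other list numbered 4 of 74 RAB peaks in shNC (5.41%, exact interval 1.49 to 13.3%) and 13 of 82 in shFTO (15.9%, 8.72 to 25.6%), against 14.6% and 14.2% of all peaks. The GTPases gave 3 of 63 and 7 of 66, and the effectors and regulators 1 of 11 and 6 of 16. In shNC they were the peaks of RAB6B, RAB32, RAB9B and RAB11FIP3, the last at 2787 to 2992 with 2.36 and 2.15 beside its stop codon peak. In shFTO they also included a weak stop codon peak of RAB29, with 1.23 and 1.76. Some of these peaks scored near 1 and those of RAB9B and RAB11FIP3 in shNC and RAB3GAP1 in shFTO adjoin a shared peak, while RAB6B in shNC and RAB26, RAB44, RAB11FIP1, RAB11FIP2, RAB11FIP3 and RAB11FIP5 in shFTO had higher scores apart from any shared peak. Absence from 1 list says only that the thresholds were missed there. There is 1 list per group, and no test of presence was possible.

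The replicates of the GTPase peaks lay a median of 0.291 apart in shNC and 0.317 in shFTO, against 0.329 and 0.316 for all peaks. A gap over 1 was found in 6 of 74 RAB peaks in shNC and 7 of 82 in shFTO, against 6.4% and 6.3% of all peaks. The peaks of RAB27A, RAB33B and RAB10 had such a gap in both groups. The median score of the GTPase peaks was 2.25 in shNC and 2.17 in shFTO, below the 2.55 and 2.52 of all peaks. Since each score is relative to its own mRNA, scores of different genes are not amounts of m6A. RAB4B overlaps a read-through gene that continues into EGLN2, and its values could include reads of that transcript.

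The machinery that loads, switches and reads RAB proteins was taken as a list of 108 genes. The shNC list held 88 of them and the shFTO list 88, with 84 shared, and 140 peaks in 76 genes could be compared. Their median difference was −0.08, with 0 past the adjusted threshold, 2 higher and 2 lower at an unadjusted p of 0.05 (2.3% and 3.68% of all peaks), and 17 above and 33 below without overlap (15.7% and 17.7% of all peaks). By role, the median was −0.02 over 10 peaks of prenylation factors and GDIs, −0.01 over 40 of exchange factors, −0.15 over 38 of TBC domain GTPase-activating proteins, −0.15 over 18 of melanosome effectors and −0.08 over 34 of endosome and Golgi effectors.

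The largest differences of that list went both ways. RABIF, a RAB chaperone, scored 1.52 and 3.55 in shNC and 3.94 and 4.01 in shFTO at its stop codon, a difference of 1.44 (SE 0.56, limma adjusted p = 0.767). The lowest value was the first shNC replicate alone, and the difference was 0.43 without it and 2.46 without the second. MLPH, the melophilin that couples RAB27A to myosin Va, scored 2.20 and 2.30 in shNC and 2.87 and 3.25 in shFTO at its start codon, a difference of 0.81 (SE 0.30, interval 0.14 to 1.48, adjusted p = 0.744). TBC1D23, a TBC domain protein of the trans-Golgi, scored 2.39 and 3.13 in shNC and 3.66 and 3.33 in shFTO at its start codon, a difference of 0.74 (SE 0.34, adjusted p = 0.832) that was 0.37 without the first shNC replicate and 1.11 without the second. The stop codon peak of TBC1D23 gave −0.21 with overlapping replicates. On the other side, SYTL2, an effector that binds RAB27A, scored 3.55 and 2.59 in shNC and 2.47 and 2.08 in shFTO in its 5′UTR, a difference of −0.80 (SE 0.37, adjusted p = 0.837), or −0.32 without the first shNC replicate and −1.27 without the second. HPS3, a subunit of the BLOC2 complex that sorts pigment enzymes, scored 6.34 and 6.20 in shNC and 5.95 and 5.02 in shFTO in its coding sequence, a difference of −0.79 (SE 0.36, adjusted p = 0.832), or −1.25 without the first shFTO replicate and −0.33 without the second. SGSM2, whose TBC domain acts on RAB32 and RAB38, scored 1.65 and 1.90 in shNC and 1.02 and 1.04 in shFTO in its 3′UTR, a difference of −0.75 (SE 0.29, adjusted p = 0.761). A higher 3′UTR peak of SGSM2, at 3434 to 3706 in shNC, was outside the limma fit. It scored 2.87 and 2.71 in shNC and 2.59 and 3.67 in shFTO.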

How the data were processed

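m6A-seq was available for shNC and shFTO Mel624 cells, with 2 replicates of IP and input each. The authors trimmed adapters with cutadapt, aligned reads to hg38 with TopHat2 version 2.0.14 (tools and build also named in the submitters' processing notes), and called peaks in windows of 100 bp along 1 RefSeq isoform per gene, the longest, by a Fisher exact test and a log2 score of at least 1. The deposited values are log2 enrichment scores set against the median window of the mRNA itself, unscaled for library size. The sources used here do not give how replicates were joined into 1 list. Such scores hide a change that covers a whole mRNA. Each list has its own peak bounds, so compared peaks can differ in extent.

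Peaks on the same isoform that shared at least 1 bp, each with 1 partner only, were compared with limma version 3.58.1 (lmFit and eBayes, group only, R 4.3.3) over all 12117 pairs with Benjamini-Hochberg adjustment, after the script was tested on simulated data. Other steps ran in Python 3.11.15 with pandas 2.3.3, numpy 2.4.6, scipy 1.17.1 and matplotlib 3.10.9. All 51 genes were found in a RefSeq gene table of GRCh38. GGACU positions were placed through GENCODE transcripts by a constant shift per transcript, and those with more than 1 solution were left out. The members and lists were chosen with earlier results of these data known. Named by rule were the melanosome RABs and RAB40B, the 10 members with the highest scores, the 5 largest and 5 smallest differences, genes in 1 list only, genes with 4 or more peaks in a list, and 3 pathway genes at each end; the other members were described by role. Alternatives were only peaks scoring 2 or more, shared peaks defined by more overlap or by their centres, 1 pair per gene, a score of at least 1 in both replicates, GGACU within 50 nt of the peak centre, centring, a replicate block and leaving out replicates.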

Additional observations from a re-analysis of the deposited data

How the results depend on the processing

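The count of 0 RAB peaks past the adjusted threshold held under every alternative run, whereas over all genes leaving out 1 replicate gave 0 to 11 peaks (11 without the second shFTO replicate), with the lone replicate of an arm assumed to vary like the others. With a mean score of at least 2, 30 RAB genes were in both lists and 36 RAB peaks were compared. Of these, 0 were lower at an unadjusted p of 0.05, where 326 of all 8320 peaks were. Without overlap 7 of the 36 were above, against 16.2% of all peaks, and 5 were below, against 18.2%. With a score of at least 1 in both replicates, 46 RAB genes were in both lists. Centring each replicate gave 1 RAB peak higher at an unadjusted p of 0.05, where 329 of all 12117 peaks were. Leaving out a replicate gave a median GTPase difference of 0.023 to 0.065. The RAB18 difference ran from −0.50 to 1.59 and was reversed without the first shNC replicate. Same-numbered replicates share a number in the labels, and it is not stated whether they were handled together. With the replicate number as a block, 0 RAB peaks were lower at an unadjusted p of 0.05, where 320 of all 12117 peaks were. Deviations of same-numbered replicates correlated at −0.273 over all 12117 peak pairs and at −0.453 over the 60 RAB pairs. The crossed pairing, chosen after seeing the data, called 13 peaks over all genes. It gave 1 RAB peak higher and 3 lower at an unadjusted p of 0.05, where 481 and 668 of all 12117 peaks were. The causes were not tested. The unknown depth, the 2 replicates per group and scores near the threshold limit what these lists can show.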
